A study of Mus musculus with 5 samples.

Results

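The genes described here are the heat shock proteins and co-chaperones of the mouse, the cell's protein-folding machinery. They were chosen by gene symbol alone: the Hspa, Hspb, Hsp90 and Hsph1 genes, Hspd1 and Hspe1, the J-domain genes Dnaja, Dnajb and Dnajc, the chaperonin genes Cct2 to Cct8 with Tcp1, Bag1 to Bag6, and Hsf1 and Hsf2. Names marked as pseudogenes were left out, which gave 91 genes of the 32285 in the deposited matrices. By the usual place of their proteins, 60 were assigned to the cytosol or nucleus, 14 to the endoplasmic reticulum (ER), 9 to the mitochondrion and 8 to none of these.

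The study profiled single cells of REX-1 RFP, a mouse embryonic stem cell line that carries a red fluorescent protein under the Rex1 (Zfp42) promoter, a reporter of the pluripotent state. Leukaemia inhibitory factor (LIF), which keeps mouse stem cells pluripotent, was present in every culture at first, and each was then held in its own condition for 72 h. The library labelled NS kept LIF with no added agent, the library labelled ND had no LIF, and the other 3 kept LIF and received the sugar alcohol sorbitol, which raises the osmolarity of the medium, at 200, 250 or 300 mM. The labels do not spell out NS and ND. Each condition is 1 library of 1 line with no replicate, so every ratio below compares libraries, no test across conditions is possible, and condition, batch and library depth cannot be told apart.

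Chaperones bind unfolded protein and help it fold, refold or reach degradation. HSP70 proteins cycle on and off their clients with the help of J-domain proteins, which deliver the client, and of nucleotide exchange factors such as the HSP110 and BAG proteins. HSP90 finishes the folding of kinases and receptors, small heat shock proteins hold unfolded clients, and the CCT ring folds actin and tubulin. In the mitochondrion, HSP60 and its lid HSP10 form a folding chamber, and in the ER the HSP70 protein BiP has its own J-domain partners. Heat shock factor HSF1 drives many of these genes when unfolded protein accumulates in the cytosol, whereas ER stress acts through other factors on BiP and its partners. Pluripotent stem cells are known for a high basal level of many chaperones.

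The promoters of several members hold the sequences by which those factors are known to find their genes. A window of 250 bases before to 50 bases after the start site was read from RefSeq (GRCm38.p6) for 73 members, and the other 18 had no entry. Bag4, Dnajc12, Hsf1, Hsp90aa1, Hsp90ab1, Hspa8, Hspa9 and Hspa13 are among those not read. No motif can be called absent from their promoters. The first set is shown for the inducible HSP70 pair, for Hsph1, Hspb1 and Dnajb4, whose levels are described below, and for the shared promoter of Hspe1 and Hspd1, and the capitals mark units of the heat shock element that face each other (GAANNTTC), stand back to back (TTCNNGAA) or form a 3-unit run (GAANNTTCNNGAA or TTCNNGAANNTTC). The Hspa1a stretch is chr17:34972238-34972275, the Hspa1b stretch chr17:34959320-34959357 and the Hsph1 stretch chr5:149636273-149636384, all on the minus strand. Those of Hspb1 (chr5:135887787-135887844) and Dnajb4 lie on the plus and minus strands, the latter at chr3:152193837-152193874. Hspe1 is read on the plus strand of chr1:55088044-55088091 and Hspd1 on the minus strand of the same bases.
Hspa1a: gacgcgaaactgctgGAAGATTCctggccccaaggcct
Hspa1b: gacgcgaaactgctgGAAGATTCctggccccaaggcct
Hsph1: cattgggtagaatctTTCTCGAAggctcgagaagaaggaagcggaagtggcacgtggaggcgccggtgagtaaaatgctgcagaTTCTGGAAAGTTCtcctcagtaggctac
Hspb1: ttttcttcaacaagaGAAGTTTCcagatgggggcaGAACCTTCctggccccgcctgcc
Dnajb4: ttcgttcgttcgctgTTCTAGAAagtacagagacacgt
Hspe1: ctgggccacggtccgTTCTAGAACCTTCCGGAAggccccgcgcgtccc
Hspd1: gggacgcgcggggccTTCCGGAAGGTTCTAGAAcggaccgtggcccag
The Hspa1a and Hspa1b stretches were identical letter for letter, and the Hspd1 stretch was the reverse complement of the Hspe1 stretch, since these neighbours start in opposite directions from a common promoter.

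A second set is shown for the ER chaperones, with the ER stress element (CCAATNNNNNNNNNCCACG) in capitals. The Hspa5 stretch is chr2:34772010-34772058 on the plus strand, the Hsp90b1 stretch chr10:86705518-86705671 on the minus strand and the Dnajc3 stretch chr14:118937812-118937860 on the plus strand.
Hspa5: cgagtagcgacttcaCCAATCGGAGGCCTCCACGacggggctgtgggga
Hsp90b1: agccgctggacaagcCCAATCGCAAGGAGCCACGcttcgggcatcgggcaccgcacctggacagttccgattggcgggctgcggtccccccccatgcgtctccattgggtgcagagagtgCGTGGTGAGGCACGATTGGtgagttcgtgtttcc
Dnajc3: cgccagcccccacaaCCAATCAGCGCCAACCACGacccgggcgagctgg
The second capital run in Hsp90b1 is the same element read on the other strand (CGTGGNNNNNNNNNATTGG). Both strands were searched for every motif, and a 3-unit run also counts under both kinds of unit pair. Facing units stood in 17 of the 73 member promoters (23.3%) against 9.04% of the 27025 genes with a window. Back-to-back units stood in 8 members (11.0%) against 9.60% of genes. The 3-unit run stood in Dnajb6, Hspd1, Hspe1 and Hsph1 (5.48% of members, 0.662% of genes), and the ER stress element in Hspa5, Hsp90b1 and Dnajc3 (4.11% of members, 0.137% of genes). The composite ATF site (TGATGNAA), known from genes of the amino acid response, stood in Hspa14 alone (1.37% of members, 4.51% of genes). Hspd1 and Hspe1 hold the same bases and are each counted, as are Hspa1a and Hspa1b with their identical stretches. The member shares of the heat shock motifs therefore include repeats. A match describes letters in a window and is not a measured binding site.

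The 5 libraries held 10000 barcodes each, of which 9240 to 10000 passed the filters, with 22158653 molecules (UMIs) in NS and 7906116 to 9766705 in the others. The median barcode had 2135 UMIs in NS and 801 to 939 elsewhere. Mitochondrial transcripts took 3.98% of UMIs in NS, 4.98% in ND and 5.61% to 6.13% with sorbitol, and ribosomal protein transcripts took 28.4% in NS and 21.3% to 25.4% in the others. Library pairs shared 34 to 54 barcodes. All 9 embryonic stem cell markers were above 5 CPM in every library (summed level 5654 to 8885 CPM), whereas 7 fibroblast markers summed to 7.37 to 18.1 CPM with Col3a1 and Postn at 0. The 6 primitive endoderm markers summed to 8.22 to 23.3 CPM and the 5 trophoblast markers to 62.9 CPM in NS, 133 in ND and 110.1 to 144 with sorbitol. Of the 5 trophoblast markers, 3 were under 5 CPM in NS and in each sorbitol library, and 2 in ND. The part of these shifts in the ratios below was not tested.

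Levels are given as CPM, the counts of a gene per 1000000 UMIs of the library, ratios as log2, and 95% intervals (exact Poisson for a level, exact binomial for a ratio or share) cover counting error only. A member was counted as higher or lower past 1.5-fold if it reached 5 CPM in either library. The CPM scale fixes each library's total, and the median gene tested lay above 0 against NS. Another scaling, by the median of gene ratios, shifts every log2 ratio by -0.08 for ND against NS and by -0.19, -0.23 and -0.27 for 200, 250 and 300 mM sorbitol against NS, by -0.19 for 300 mM against ND and by -0.09 for 300 against 200 mM. Ratios on that scale are called rescaled below.

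The summed level of all members differed little between libraries, while single members stood well apart. It was 18006 CPM in NS and 18739 in ND, against 18509, 20601 and 18819 CPM with 200, 250 and 300 mM sorbitol. Of the 91 members, 77 reached 5 CPM in at least 1 library, 30 reached 100 CPM, and 1, the J-domain gene Dnajb8, had no UMI. The 14 under 5 CPM throughout were Bag2, Cct6b, Cct8l1, Dnajb3, Dnajb7, Dnajb8, Dnajc22, Dnajc28, Dnajc5b, Hspa12b, Hspa1l, Hspb3, Hspb7 and Hspb9, several of them known from testis or muscle. The cytosolic members summed to 14657 CPM in NS and 15767 at 300 mM, the ER members to 1060.1 and 1149.5, and the mitochondrial members to 2113 and 1667.

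At 300 mM sorbitol, 15 of 74 members were higher than in NS and 5 were lower, where 32.8% of all genes tested were higher and 10.6% lower. The 15 were 20.3% of the members. The higher ones were Bag4, Dnaja4, Dnajb4, Dnajc6, Dnajc10, Dnajc12, Dnajc13, Dnajc14, Dnajc16, Dnajc21, Hsf2, Hspa13, Hspa1b, Hspb1 and Hsph1, and the lower ones Dnajc4, Dnajc5g, Dnajc24, Hspb2 and Hspe1. The interval of the ratio lay past 1.5-fold for 14 of all members tested. The member median was 0.11 against 0.29 over all genes. Rescaled, 10 members were higher and 16 lower, against 19.7% and 19.3% of genes, and the member median was -0.17. Of the 74, 3 reached 5 CPM only in the sorbitol library, and all 3 were among the 15.

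At 200 mM, 12 of 77 members were higher and 9 lower than in NS (26.8% and 11.0% of genes), with a member median of 0.02 against 0.20 over all genes. Rescaled, 8 were higher and 14 lower (18.4% and 17.0% of genes). At 250 mM, 16 of 75 were higher and 4 lower (26.5% and 8.69% of genes), with medians of 0.06 and 0.23, and rescaled 7 were higher and 11 lower (16.0% and 15.6% of genes). Members that reached 5 CPM through 1 library only gave 4 of the 12 and 1 of the 9 at 200 mM, and 3 of the 16 and 1 of the 4 at 250 mM. These 3 dose comparisons share the NS library.

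Without LIF, fewer members stood apart. In ND, 1 of 71 members was higher than in NS and 6 were lower, where 10.0% of all genes tested were higher and 7.07% lower. The higher one was Dnajc11 and the lower ones were Dnajb2, Dnajb13, Dnajc1, Dnajc5g, Hspb2 and Hspb8, of which 2 reached 5 CPM only in NS. The member median was -0.0011 against 0.08 over all genes, and rescaled 0 were higher and 8 lower (7.43% and 9.06% of genes). The 300 mM library had 18 of 74 members higher than ND and 1, Hspe1, lower (27.9% and 11.4% of genes), or 14 and 7 rescaled (19.2% and 17.8% of genes). Of these 18, 6 reached 5 CPM only in the 300 mM library. It had 5 of 77 members higher than the 200 mM library, Dnajc5, Dnajc6, Dnajc16, Dnajc27 and Hsph1, and 0 lower (5.53% and 4.14% of genes), or 3 and 0 rescaled (3.65% and 5.76% of genes). Dnajc27 reached 5 CPM only at 300 mM.

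**Figure D1:**
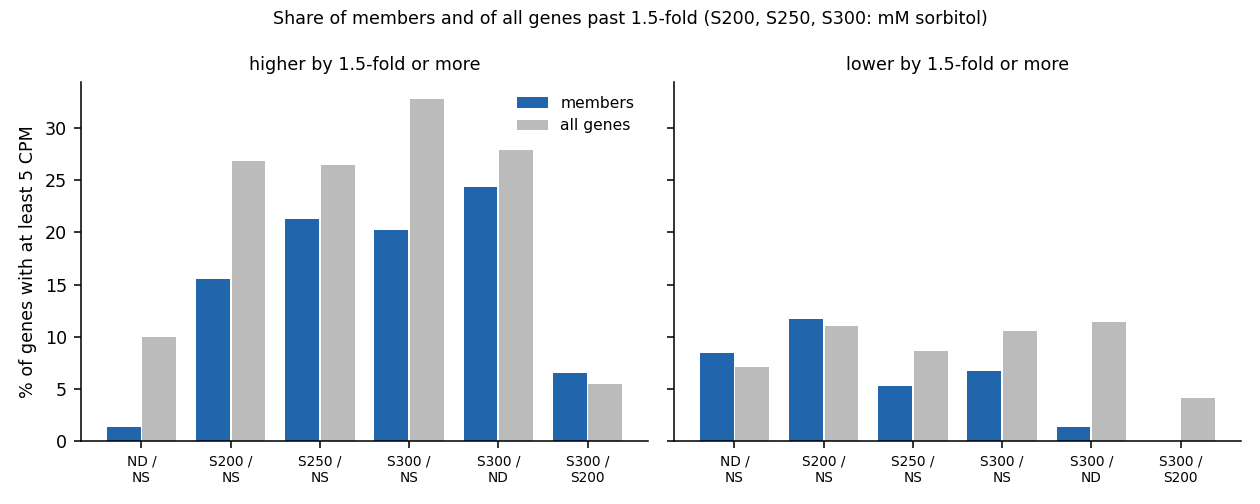
Share of members (blue bars) and of all genes tested (grey bars), in percent, that were more than 1.5-fold higher or lower in each of the 6 comparisons, on the CPM scale. For 300 mM sorbitol against NS the bars for higher genes stand at 20.3% of members and 32.8% of all genes.

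The transcription factors themselves were expressed at low levels in every library. Hsf1 (ENSMUSG00000022556), the main heat shock activator, stood at 16.2 CPM in NS and 21.9 in ND, against 21.3 at 200 mM, 24.9 at 250 mM and 23.3 at 300 mM sorbitol. It was lowest in NS, and the ratios were 0.43 for ND and 0.39, 0.62 and 0.52 for the 3 sorbitol doses, 0.21, 0.39 and 0.25 rescaled. Hsf2, a second factor that can pair with it, was counted at 29.2 (NS), 41.5 (ND), 41.0 (200 mM), 33.1 (250 mM) and 44.9 CPM (300 mM). Its ratio to NS was 0.50 in ND and 0.49, 0.18 and 0.62 with sorbitol, of which that at 250 mM turned to -0.05 rescaled.

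The stress-induced HSP70 genes gave among the largest ratios of all members, from very few molecules. Hspa1b (ENSMUSG00000090877; chromosome 17, 34956436 to 34959238 in mm10), the classical heat-inducible HSP70, stood at 3.47 CPM in NS and 1.90 in ND, against 11.8 at 200 mM, 13.7 at 250 mM and 12.7 at 300 mM sorbitol, from 77, 15, 109, 134 and 105 UMIs. The 3 sorbitol libraries lay together and above both libraries without sorbitol. Its log2 ratio to NS was 1.77 (1.33 to 2.21), 1.98 (1.57 to 2.40) and 1.87 (1.43 to 2.31), with no ordering by dose beyond the intervals, and that of ND was -0.87 (-1.78 to -0.06).

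Its neighbour Hspa1a (ENSMUSG00000091971; chromosome 17, 34969190 to 34972156), which encodes nearly the same protein and has the identical promoter stretch above, had 27, 10, 58, 55 and 40 UMIs. That is 1.22 (NS), 1.26 (ND), 6.29 (200 mM), 5.63 (250 mM) and 4.82 CPM (300 mM), under the 5 CPM minimum at 300 mM. The last 500 bases of the annotated transcripts of this pair shared no 60-base stretch with another gene, but how the counting treated reads that fit both is not given in the sources used here, so their sum was taken too. Together they stood at 4.69 CPM in NS and 3.16 in ND, against 18.1 at 200 mM, 19.4 at 250 mM and 17.5 at 300 mM sorbitol, which is 3.86-, 4.12- and 3.73-fold the NS level (log2 1.95, 2.04 and 1.90, or 1.76, 1.82 and 1.62 rescaled). The lower bounds of these 3 ratios were all above 1.5 on the log2 scale.

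Hspa8 (ENSMUSG00000015656), the constitutive HSP70 that does most of the everyday work, was present at 1525 CPM in NS and 1773 in ND, against 1484 at 200 mM, 1771 at 250 mM and 1366 at 300 mM sorbitol. It outnumbered Hspa1b in UMIs in every library, and Hspa1b made up 0.227% (0.179 to 0.284) of the pair's UMIs in NS and 0.107% in ND, against 0.791%, 0.769% and 0.918% (0.752 to 1.11) over the doses. These shares do not depend on the scaling between libraries. Hspa8 shared 81.4% of the 60-base stretches of its transcript ends with other annotated genes, so its count is uncertain. Hspa14, a ribosome-associated HSP70, had its highest level in NS, with 74.6 (NS), 70.1 (ND), 57.4 (200 mM), 64.1 (250 mM) and 54.1 CPM (300 mM), and a ratio of -0.46 at 300 mM that came to -0.73 rescaled, past 1.5-fold. Hspa2 stayed at 4.93 to 8.35 CPM.

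HSP110 proteins are the exchange factors that reset HSP70, and Hsph1 and the scarcer Hspa4l each passed 1.5-fold above NS in at least 1 sorbitol library. Hsph1 (ENSMUSG00000029657; chromosome 5, 149614287 to 149636376) was counted at 56.2 CPM in NS and 74.4 in ND, against 80.2 at 200 mM, 121 at 250 mM and 121 at 300 mM sorbitol. The levels at 250 and 300 mM were equal within their intervals and above every other library. The ratio to NS was 0.40 in ND and 0.51, 1.11 and 1.11 over the doses (interval at 300 mM 0.99 to 1.23), or 0.33, 0.88 and 0.84 rescaled, and the step from 200 to 300 mM was 0.60 (0.46 to 0.74).

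Its paralog Hspa4 was more abundant in counts, at 414 (NS), 463 (ND), 448 (200 mM), 590.2 (250 mM) and 519 CPM (300 mM), with ratios of 0.12, 0.51 and 0.33 that stayed under 1.5-fold and turned to -0.07 at 200 mM rescaled. Hsph1 took 12.0% (11.3 to 12.6) of the UMIs of this pair in NS and 13.9% in ND, against 15.2%, 17.0% and 19.0% (17.9 to 20.04) at the 3 doses. The share was higher at each dose than at the one below it, and the intervals of neighbouring doses overlapped only at their edges. The third paralog, Hspa4l, lay at 7.58 (NS), 5.44 (ND), 12.5 (200 mM), 10.8 (250 mM) and 10.9 CPM (300 mM), with ratios to NS of 0.72, 0.50 and 0.52, or 0.53, 0.28 and 0.24 rescaled, so that only 200 mM passed 1.5-fold and only on the CPM scale. Its ratio of 300 mM to ND was 0.997 (0.46 to 1.56), against 0.71 for Hsph1.

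Among the small heat shock proteins, Hspb1 was higher with sorbitol and Hspb8 and Hspb2 were lower without LIF. Hspb1 (ENSMUSG00000004951; chromosome 5, 135887919 to 135889563), which encodes HSP27 (HSP25 in the mouse), a holdase that also binds actin filaments, stood at 556 CPM in NS and 445 in ND, against 668 at 200 mM, 1074 at 250 mM and 839 at 300 mM sorbitol. Its ratio was -0.32 in ND and 0.26, 0.95 and 0.59 with sorbitol, or 0.08, 0.72 and 0.32 rescaled, so that 300 mM passed 1.5-fold only on the CPM scale. The level peaked at 250 mM and not at the highest dose, with 1053 to 1095 CPM as its interval there and 819 to 859 at 300 mM. Its transcript ends shared 13.4% of their 60-base stretches with other genes.

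Hspb8, the partner of Bag3 in a complex that sends misfolded protein to autophagy, was at 53.7 (NS), 23.5 (ND), 50.8 (200 mM), 44.1 (250 mM) and 62.8 CPM (300 mM). ND was the lowest library by a wide margin, with a ratio of -1.19 (-1.42 to -0.97), while the sorbitol libraries stayed within 1.5-fold of NS. Hspb2, a muscle form, was at 15.7 (NS), 3.16 (ND), 6.18 (200 mM), 5.73 (250 mM) and 6.63 CPM (300 mM), with ratios of -2.31 in ND and -1.34, -1.45 and -1.24 with sorbitol. All 4 libraries lay below NS, and the neighbour Cryab, another small heat shock protein gene whose exons overlap Hspb2 on the opposite strand, was likewise highest in NS and lowest in ND, at 15.4 (NS), 4.05 (ND), 8.90 (200 mM), 10.9 (250 mM) and 10.9 CPM (300 mM). Whether the counting used strand is not given in the sources used here, so the signal of this pair cannot be assigned to one gene. Such overlaps are common in the set. Exons of 31 members overlap another gene on the opposite strand, those of Bag4, Dnajc1, Dnajc13 and Dnajc19 among them. Exons of 11 members overlap another gene on the same strand, those of Dnajc14 and Hspa14 among them. The counts of these members carry a like limit. Bag3 itself, the exchange factor that pairs with Hspb8, lay at 22.3 (NS), 23.7 (ND), 20.3 (200 mM), 21.5 (250 mM) and 23.9 CPM (300 mM), within 1.5-fold of NS in all 4 comparisons.

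**Figure D2:**
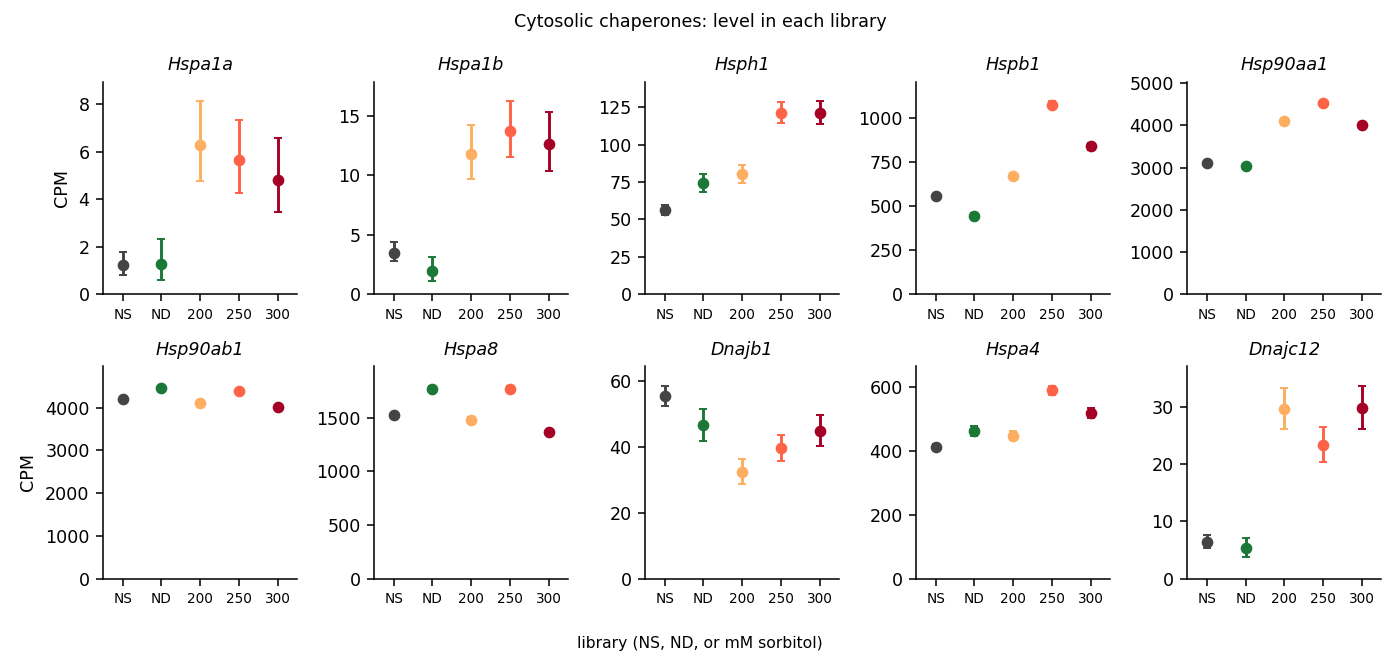
Level in CPM (vertical axes, each from 0) of cytosolic chaperone genes in the 5 libraries (NS, ND and mM sorbitol on the horizontal axes), 1 point a library with its 95% counting interval. Hspa1b lies at 3.47 CPM in NS and 11.8 to 13.7 CPM with sorbitol, and Hsph1 at 56.2 and 80.2 to 121 CPM.

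The HSP90 genes were the most abundant members in counts, and their balance differed between libraries. Hsp90ab1, the constitutive HSP90, stood at 4202 CPM in NS and 4469 in ND, against 4112 at 200 mM, 4392 at 250 mM and 4015 at 300 mM sorbitol, and its ratios to NS lay between -0.07 and 0.09, down to -0.34 rescaled. Hsp90aa1 (ENSMUSG00000021270; chromosome 12, 110690605 to 110702728), the form that stress is known to raise, was at 3102 CPM in NS and 3027 in ND, against 4094 at 200 mM, 4535 at 250 mM and 3998 at 300 mM sorbitol. The sorbitol libraries were above NS and ND, with ratios of 0.40, 0.55 and 0.37, or 0.21, 0.32 and 0.09 rescaled, none of them past 1.5-fold. Hsp90aa1 made up 42.5% of the pair's UMIs in NS and 40.4% in ND, against 49.9%, 50.8% and 49.9% with sorbitol. The counting interval of the NS share was 42.2 to 42.7% and that at 300 mM 49.5 to 50.3%.

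The genes of the mitochondrial folding chamber had lower levels with sorbitol than in NS, past 1.5-fold on the CPM scale for Hspe1 at 200 and 300 mM alone. Hspe1 (ENSMUSG00000073676; chromosome 1, 55088132 to 55091307), which encodes the lid HSP10, was counted at 872 CPM in NS and 1033 in ND, against 538 at 200 mM, 659 at 250 mM and 512 at 300 mM sorbitol. The 3 sorbitol libraries were below NS and ND was above it, with ratios of -0.70, -0.40 and -0.77 (-0.88, -0.63 and -1.04 rescaled) and 0.24, and 300 mM against ND gave -1.01 (-1.07 to -0.96), the only member past 1.5-fold lower in that comparison on the CPM scale. Hspd1 (ENSMUSG00000025980; chromosome 1, 55077835 to 55088243), which encodes HSP60 and shares the promoter printed above, stood at 662 CPM in NS and 743 in ND, against 490.2 at 200 mM, 568 at 250 mM and 510.1 at 300 mM sorbitol. It followed the same order of libraries except that 200 mM lay just under 300 mM, with smaller ratios of -0.43, -0.22 and -0.38 and 0.17. Rescaled, the sorbitol ratios of Hspd1 were -0.62, -0.45 and -0.65, past 1.5-fold at 200 and 300 mM.

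The share of Hspd1 in the pair's UMIs was 43.2% in NS and 41.8% in ND, against 47.7%, 46.3% and 49.9% over the doses. These genes, divergent from 1 promoter, differed in the size of their ratios, by more than their counting intervals at each dose. Their exons overlap on opposite strands and the use of strand is not known, so part of either count may belong to the other. Hspe1 shared 46.0% of its transcript-end stretches with other genes, so its count is uncertain.

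Other mitochondrial members were mixed. Hspa9, mortalin, the HSP70 that pulls proteins into the matrix, was at 333 (NS), 356 (ND), 407 (200 mM), 339 (250 mM) and 407 CPM (300 mM), and no ratio to NS passed 1.5-fold. Dnajc19, a J-domain protein of the import motor, was lower with sorbitol at 74.6 CPM (300 mM) against 97.7 in NS, a ratio of -0.39 (-0.52 to -0.26), or -0.66 rescaled and then past 1.5-fold. Dnajc11, which belongs to the complex that shapes the inner membrane, was the one member higher in ND, at 73.9 CPM against 48.8, with a ratio of 0.60 that came to 0.52 rescaled, under 1.5-fold. Of the 9 mitochondrial members, 1 was lower and 0 were higher at 300 mM against NS, where 10.6% and 32.8% of all genes were. Rescaled, 3 were lower, where 19.3% of all genes were. Mitochondrially encoded transcripts, measured separately above, took a larger share of UMIs with sorbitol than in NS.

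Most ER members had a ratio below 0 without LIF, and 1 of 14 passed 1.5-fold there. Hspa5 (ENSMUSG00000026864; chromosome 2, 34771970 to 34777547), which encodes BiP, stood at 342 CPM in NS and 244 in ND, against 374 at 200 mM, 338 at 250 mM and 366 at 300 mM sorbitol. ND was the lowest library, with a ratio to NS of -0.48 (-0.56 to -0.41), while the sorbitol ratios were 0.13, -0.02 and 0.10, or -0.06, -0.24 and -0.17 rescaled. Hsp90b1, the ER form of HSP90 (GRP94), was at 396 (NS), 322 (ND), 454 (200 mM), 374 (250 mM) and 409 CPM (300 mM), again lowest in ND with a ratio of -0.30. As a share of Hspa5 and Hspa8 UMIs together, Hspa5 made up 18.3% in NS and 12.1% in ND, against 20.1%, 16.0% and 21.2% over the doses. This share also moves with Hspa8, which was at 1525 CPM in NS and 1773 in ND and whose count is uncertain.

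The J-domain partners of BiP did not follow a common order. Dnajc3 (P58IPK), which also holds an ER stress element, was highest in NS at 51.4 (NS), 38.7 (ND), 41.2 (200 mM), 35.4 (250 mM) and 36.8 CPM (300 mM), with sorbitol ratios of -0.32, -0.54 and -0.48, or -0.50, -0.76 and -0.75 rescaled and then past 1.5-fold at 250 and 300 mM. Dnajb9 (ERdj4), known as a strong target of ER stress, was at 26.0 (NS), 17.8 (ND), 23.0 (200 mM), 22.3 (250 mM) and 27.6 CPM (300 mM), and Dnajb11 (ERdj3) at 43.3 (NS), 42.4 (ND), 48.8 (200 mM), 48.8 (250 mM) and 55.6 CPM (300 mM). Dnajc10 (ERdj5), a disulfide reductase of the ER, stood higher in all 3 sorbitol libraries, at 40.7 (NS), 39.1 (ND), 79.1 (200 mM), 63.5 (250 mM) and 77.2 CPM (300 mM), with ratios of 0.96, 0.64 and 0.92, or 0.77, 0.42 and 0.65 rescaled.

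Hspa13, an HSP70-like protein of the ER, was at 23.6 (NS), 17.1 (ND), 34.4 (200 mM), 29.1 (250 mM) and 42.8 CPM (300 mM), and passed 1.5-fold against NS at 300 mM alone (0.86, 0.66 to 1.06). Dnajc14 went from 10.6 CPM in NS to 20.3 at 300 mM. Dnajc1, a J-domain protein of the ER membrane, was the one ER member past 1.5-fold lower in ND, at 22.9 CPM against 40.1 in NS (-0.81, -1.05 to -0.58). It was also below NS with sorbitol, at 30.6 (200 mM), 32.5 (250 mM) and 31.5 CPM (300 mM). Dnajc25 was at 23.4 CPM in NS and 14.1 to 18.5 in the sorbitol libraries.

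Across the 14 ER members, 11 had a ratio below 0 in ND against NS, with a median of -0.30, or -0.38 rescaled, against 0.08 over all genes, of which 58.5% had a ratio above 0. Past 1.5-fold there were 0 higher and 1 lower (10.0% and 7.07% of all genes), or 0 and 3 rescaled (7.43% and 9.06% of all genes). At 300 mM against NS, 4 were higher and 0 lower (32.8% and 10.6% of all genes) with a median of 0.09. Rescaled, the median turned to -0.18 with 4 higher and 4 lower (19.7% and 19.3% of all genes).

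**Figure D3:**
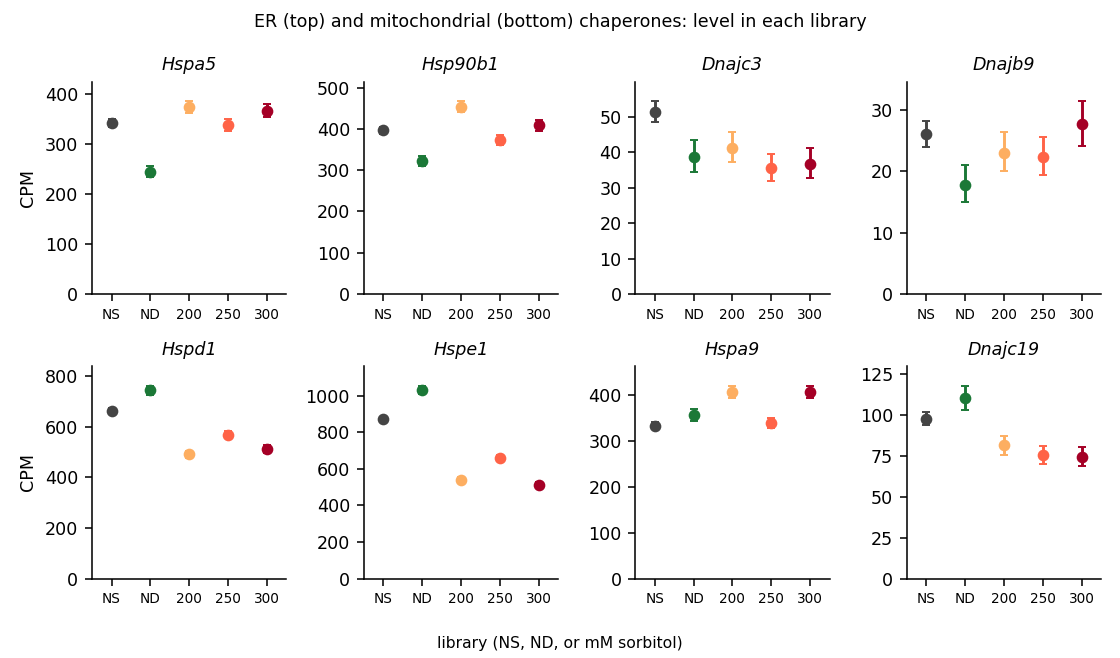
Level in CPM (vertical axes, each from 0) of 4 ER genes (top) and 4 mitochondrial genes (bottom) in the 5 libraries, 1 point a library with its 95% counting interval. Hspa5 is lowest in ND (244 CPM, against 338 to 374 elsewhere), and Hspe1 is highest in ND (1033 CPM) and lowest at 300 mM (512 CPM).

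Cytosolic J-domain genes held some of the largest ratios above NS and others below it. Dnajc12 (ENSMUSG00000036764; chromosome 10, 63382443 to 63410576), a co-chaperone known for its work with the aromatic amino acid hydroxylases, stood at 6.41 CPM in NS and 5.31 in ND, against 29.6 at 200 mM, 23.3 at 250 mM and 29.8 at 300 mM sorbitol. Sorbitol libraries were 4.62-, 3.64- and 4.65-fold the NS level (log2 2.21, 1.87 and 2.22, interval at 300 mM 1.91 to 2.52), well clear of NS and ND. Dnajb4, a partner of the inducible HSP70 and holder of a back-to-back unit pair, was at 4.83 (NS), 3.79 (ND), 15.5 (200 mM), 9.73 (250 mM) and 13.1 CPM (300 mM), with ratios of 1.68, 1.01 and 1.44.

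Dnajb1 (HSP40), the classical heat-inducible J-domain protein that works with HSP70, was lower with sorbitol, at 55.5 CPM in NS and 46.5 in ND, against 32.3 at 200 mM, 39.6 at 250 mM and 44.9 at 300 mM sorbitol. NS was the highest library, the ratios were -0.78, -0.49 and -0.31 over the doses and -0.25 in ND, and only 200 mM passed 1.5-fold (-0.97 to -0.60). Rescaled they were -0.97, -0.71 and -0.58, and 250 mM passed as well. Dnaja1, another J-domain partner of HSP70, was at 344 (NS), 360.1 (ND), 353 (200 mM), 399.7 (250 mM) and 356 CPM (300 mM), with ratios under 0.25 in size. Dnajb1 took 13.9% of the UMIs of these 2 genes in NS and 11.4% in ND, against 8.38%, 9.02% and 11.2% over the doses.

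Abundant J-domain genes lay close to NS. Dnajb6, which suppresses aggregates and carries a 3-unit heat shock element, was at 323 (NS), 367 (ND), 286 (200 mM), 357 (250 mM) and 378 CPM (300 mM), and Dnaja2 at 118 to 151 CPM. Dnajc8 (257 to 315 CPM), which is known from the spliceosome, and Dnajc7 (163 to 245 CPM), which binds both HSP70 and HSP90, stayed within 1.5-fold of NS. Dnajc21, a ribosome assembly factor, was an exception at 195 (NS), 256 (ND), 308 (200 mM), 319.6 (250 mM) and 347 CPM (300 mM), with ratios of 0.66, 0.71 and 0.83 that came to 0.47, 0.49 and 0.56 rescaled, the first 2 of these under 1.5-fold.

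Several further J-domain genes work in vesicle traffic. Dnajc13, which acts on endosomes, was at 48.3 (NS), 69.1 (ND), 84.6 (200 mM), 93.0 (250 mM) and 84.9 CPM (300 mM) with ratios of 0.81, 0.95 and 0.81, or 0.62, 0.72 and 0.54 rescaled, the last of them under 1.5-fold. Dnajc6 (auxilin), which uncoats clathrin vesicles, went from 8.26 CPM in NS to 12.6, 14.4 and 21.1, with a step of 0.75 between 200 and 300 mM. Dnajc5, the cysteine string protein of secretory vesicles, was higher at 300 mM (122 CPM) than at 200 mM (75.2 CPM), a ratio of 0.70, 0.56 to 0.84, while its ratio to NS at 300 mM was 0.39. Dnajc24, which belongs to the diphthamide pathway, was lower at 300 mM, with 16.2 CPM against 24.6.

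Dnajc18, which was assigned to the ER and not to the cytosol, was at 21.8 (NS), 17.7 (ND), 11.8 (200 mM), 15.9 (250 mM) and 15.8 CPM (300 mM). It was below NS in every other library and past 1.5-fold at 200 mM, and rescaled at all 3 doses (-1.07, -0.69 and -0.74). Dnajc9, a histone chaperone, had its highest level at 300 mM, 86.6 CPM against 60.1 to 67.3 elsewhere. Of 17 cytosolic J-domain members tested at 300 mM against NS, 5 were higher and 1 lower (32.8% and 10.6% of all genes) with a median of 0.05. Rescaled there were 3 and 2 (19.7% and 19.3% of all genes) with a median of -0.22.

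**Figure D4:**
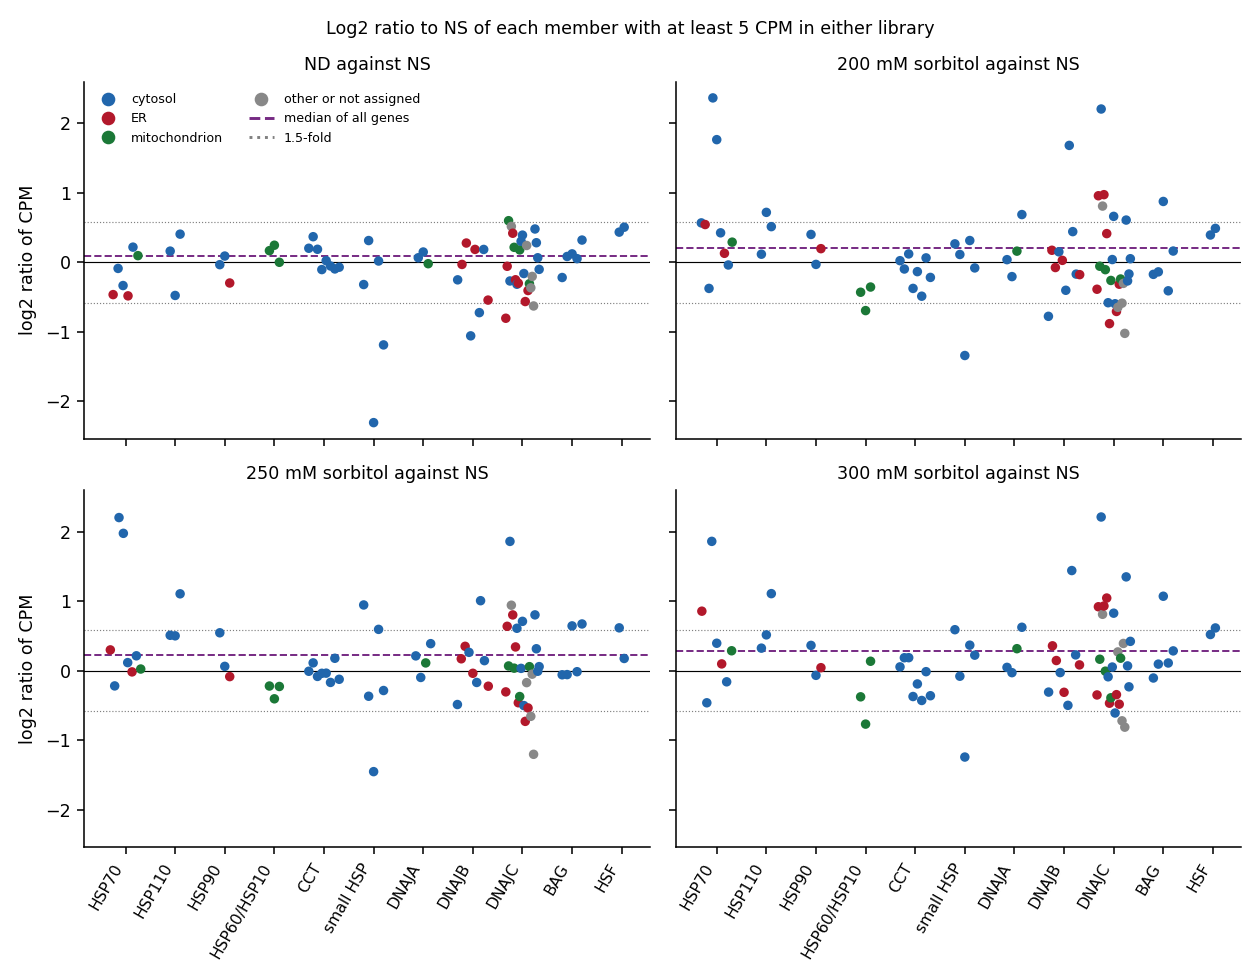
Log2 ratio to NS of each member with at least 5 CPM in either library, by family, for ND and for sorbitol. Each point is 1 gene, coloured by compartment, the dashed line is the median of all genes tested and the dotted lines are 1.5-fold. At 300 mM, 54 of 74 points lie within 1.5-fold, and Hspa1a (2.37 at 200 mM) and Hspb2 (-2.31 in ND) stand at the edges.

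The BAG proteins, which release clients from HSP70, held 1 member that stood apart. Bag4, known as a silencer of death receptors, was at 36.4 (NS), 39.6 (ND), 66.8 (200 mM), 57.0 (250 mM) and 76.7 CPM (300 mM), above NS at all 3 doses with ratios of 0.88, 0.65 and 1.07, or 0.69, 0.42 and 0.80 rescaled. Bag1 was at 139 to 162 CPM, and Bag6, which guards membrane proteins on their way to the ER, passed 1.5-fold at 250 mM alone, at 108 CPM against 67.9 in NS (0.67, or 0.45 rescaled and then under 1.5-fold).

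The CCT ring stayed nearly level on the CPM scale. Of its 8 members tested, 0 were past 1.5-fold in any of the 6 comparisons on that scale. Over these comparisons, 5.53% to 32.8% of all genes tested were higher and 4.14% to 11.4% lower. Tcp1, the first subunit named, was at 324 CPM in NS and 308 in ND, against 278 at 200 mM, 298 at 250 mM and 253 at 300 mM sorbitol. Cct7 (397 CPM in NS, 295 at 300 mM) had the lowest ratio at 300 mM (-0.43) and Cct3 (237 and 269.8 CPM) one of the highest (0.19). The 8 subunits spread from -0.43 to 0.19 around a median of -0.10 there. Rescaled, the median was -0.37 and 3 subunits were lower, Cct5, Cct7 and Tcp1, where 19.3% of all genes were lower. Cct6a (324 to 375 CPM) and Cct8 (219 to 266 CPM) lay in between.

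**Figure D5:**
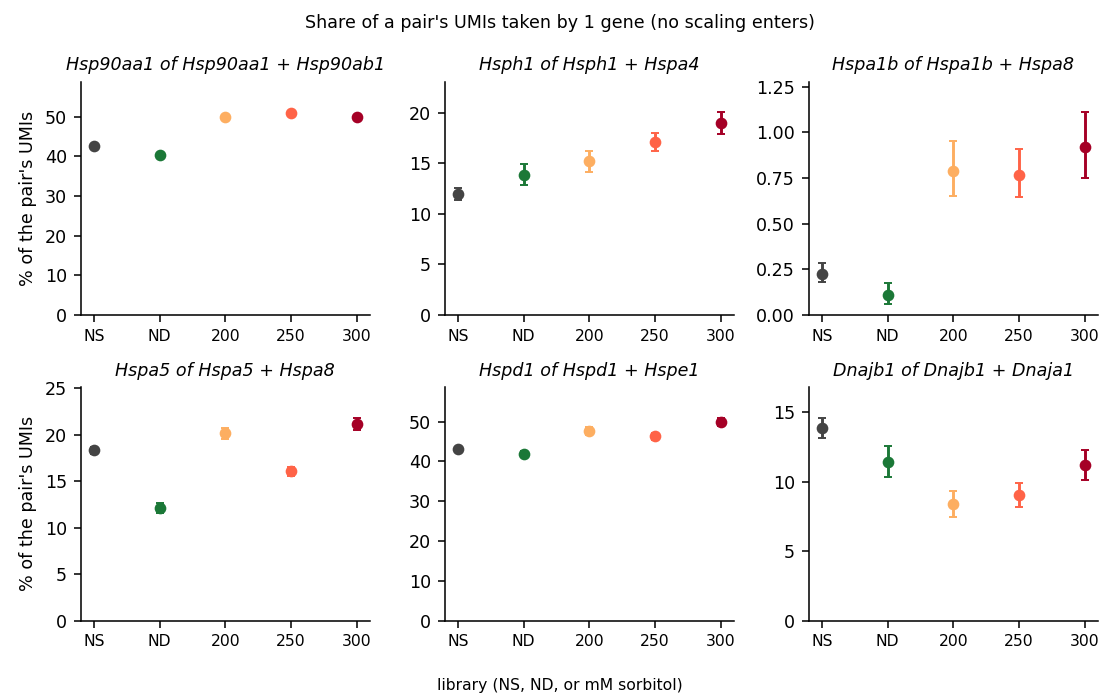
Share in percent (vertical axes) of the first-named gene in the UMIs of a pair of related genes, in each of the 5 libraries, with exact 95% binomial intervals. Hsp90aa1 goes from 42.5% in NS to 49.9% at 300 mM sorbitol and Hsph1 from 12.0% to 19.0%.

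Partners of these genes outside the symbol rule were read as 6 lists. Over all genes tested, 10.0% were higher and 7.07% lower in ND against NS, and 32.8% and 10.6% at 300 mM against NS. Of 15 HSP90 and HSP70 co-chaperones, 1 was higher and 0 lower in ND, and 1 was higher and 1 lower at 300 mM against NS. The higher one in ND was Fkbp4, an HSP90-binding immunophilin (346 to 556 CPM, log2 0.68). At 300 mM, Chordc1, which binds HSP90, was higher (43.7 to 73.3 CPM, log2 0.75), or 0.47 rescaled and then under 1.5-fold, and Ppid, a cyclophilin that binds HSP90, was lower (103 to 61.1 CPM, log2 -0.76). Of 10 prefoldin and CCT partners, 0 were higher and 1 was lower at 300 mM, Pfdn5 (229 to 130.0 CPM, log2 -0.81), and 0 passed in ND.

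Among 20 genes of ER folding and the unfolded protein response, 0 were higher and 1 lower in ND (10.0% and 7.07% of all genes). At 300 mM against NS, 2 were higher and 1 lower (32.8% and 10.6% of all genes). Ddit3, the stress factor CHOP, was the one lower in ND (57.2 to 28.6 CPM, log2 -1.0). At 300 mM the collagen chaperone Serpinh1 was higher (18.0 to 35.8 CPM, log2 0.996), and Herpud1, a degradation factor induced by ER stress, was lower (37.0 to 24.0 CPM, log2 -0.62). At 200 mM, 5 of the list were higher and 1 lower (26.8% and 11.0% of all genes). Ddit3 stood above NS there (57.2 to 118 CPM, log2 1.04, 0.86 rescaled). The list median was -0.12 in ND, 0.35 at 200 mM (0.16 rescaled) and 0.21 at 300 mM, the last turning to -0.06 rescaled. Of 16 genes of mitochondrial folding and proteolysis, 0 passed in ND, and 3 were higher and 1 lower at 300 mM (32.8% and 10.6% of all genes). Grpel1, the exchange factor of Hspa9, was the lower one (172 to 112 CPM, log2 -0.62), and the proteases Clpx (20.2 to 31.7 CPM, log2 0.65) and Afg3l2 (49.9 to 76.0 CPM, log2 0.61) were among the higher ones, both under 1.5-fold rescaled.

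Of 10 other stress-induced genes tested, 3 were higher and 3 lower at 300 mM against NS (32.8% and 10.6% of all genes). Rescaled, 0 were higher and 4 lower (19.7% and 19.3% of all genes). The metallothioneins Mt1 (2287 to 285 CPM, log2 -3.00) and Mt2 (994 to 169.8 CPM, log2 -2.55) were far lower, and Gadd45a, a growth arrest gene, had 28.9 to 50.2 CPM, log2 0.80, under 1.5-fold rescaled. Immediate early genes, which rise within minutes of handling cells, were listed beside the inducible HSP70 genes because both can move with sample preparation. Of 10 tested at 300 mM, 4 were higher and 1 was lower than in NS (32.8% and 10.6% of all genes). Rescaled there were 2 and 2 (19.7% and 19.3% of all genes). Ier3 was the furthest (35.8 to 99.6 CPM, log2 1.48). At 200 mM 4 were higher and 1 lower (26.8% and 11.0% of all genes). Of 9 tested in ND, 0 were higher and 2 lower (10.0% and 7.07% of all genes). The lower ones were Egr1 (30.8 to 10.6 CPM, log2 -1.53) and Junb (23.7 to 13.7 CPM, log2 -0.80). The part of cell handling in the Hspa1a and Hspa1b values was not tested.

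Promoter letters and ratios were set side by side as a description. Of the 17 members with facing units, 14 were tested at 300 mM against NS, and 4 were higher (Dnaja4, Hspa1b, Hspb1 and Hsph1) and 2 lower (Dnajc5g and Hspe1), where 32.8% and 10.6% of all genes were, with a median of 0.23, or -0.05 rescaled. Dnaja4 and Hspa1b reached 5 CPM only in the sorbitol library. The 8 members with back-to-back units gave 3 higher (Dnajb4, Dnajc10 and Hsph1) and 1 lower (Hspe1), against the same shares of all genes. Their median was 0.02, or -0.25 rescaled. The 4 members with the 3-unit run gave 1 higher (Hsph1) and 1 lower (Hspe1). All 3 members with the ER stress element lay below NS in ND, between -0.48 and -0.30, none of them past 1.5-fold. In that comparison 11 of the 14 ER members, these 3 included, lay below 0, and 58.5% of all genes lay above 0. At 300 mM against NS the 3 ranged from -0.48 to 0.10.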

How the data were processed

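Droplet single-cell RNA of 5 libraries, 1 per condition, was measured. The deposited matrices hold unnormalized UMI counts of each gene in each barcode, and per the file headers Cell Ranger 6.0.1 wrote them. The submitters' processing notes name the same tool and version, mm10, R 4.1.2 and Seurat 4.1.1, and give none of them a role. The extraction text in the labels names Trizol and a Lexogen 3' kit, whereas the matrices hold droplet barcodes. The gene annotation used, the handling of strand and the choice of barcodes were not given in the sources used here.

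A barcode was kept from 500 genes upwards if no more than 20% of its UMIs were mitochondrial, no doublet caller was run, and counts were summed per library and divided by its total (CPM). Kept UMIs were 22158653 (NS), 7906116 (ND), 9218297, 9766705 and 8292073 (200, 250 and 300 mM), so that NS is the most precise library. Intervals are at 95%, exact Poisson or binomial (Clopper-Pearson for shares). A ratio against fewer than 3 UMIs was given only as a bound.

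The members, the lists of partner genes and the motifs were chosen with earlier results of these data known, and support nothing by themselves. Members always named were 17 listed genes, with the level in every library. The 2 with the highest mean CPM of each family were named too. So were the 8 highest and 8 lowest ratios of each of the 6 comparisons at 20 CPM or more. Some of these added members are given with a range or with only part of their levels. Partner genes were the up to 4 with the largest ratio per list. Others (Bag3, Cct5, Dnaja4, Dnajb2, Dnajb4, Dnajb13, Dnajc4, Dnajc5g, Dnajc16, Dnajc27, Hspa2, Hspa4l, Hspb2 and Cryab) were chosen after their values were seen. Of the members, 1 enters the counts and is not reported here.

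Alternatives were median-of-ratios scaling, a total without mitochondrial and ribosomal protein genes, a minimum of 20 CPM or none, barcodes without the 5% with most UMIs, and barcodes thinned to 500 UMIs. The ratio code was tested on simulated data. Promoters came from RefSeq (GRCm38.p6), and gene coordinates, exon overlaps and the 60-base stretches shared in the last 500 bases from GENCODE M21 (mm10). Python 3.11.15, numpy 2.4.6, scipy 1.17.1, pandas 2.3.3 and matplotlib 3.10.9 were used.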

Additional observations from a re-analysis of the deposited data

How the results depend on the processing

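No ratio of a named member past 1.5-fold changed sign under these alternatives, but the counts and the small medians over the members moved. With median-of-ratios scaling, ND against NS had 0 members higher. Lower members numbered 14 at 200 mM, 11 at 250 mM and 16 at 300 mM against NS and 7 at 300 mM against ND, and 7 were higher at 250 mM. The member medians turned to -0.16, -0.17 and -0.17 at the 3 doses against NS and to -0.080 against ND, and 300 against 200 mM had 3 higher and a median of -0.025. These follow from the shift of every ratio that this scaling makes.

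With a total that leaves out mitochondrial and ribosomal protein genes, ND had 0 higher and 11 lower members. At 250 mM there were 7 lower, 300 mM against ND had 3 lower and 300 against 200 mM had 3 higher. The medians turned to -0.0090 at 200 mM, -0.048 at 250 mM and -0.0088 for 300 against 200 mM. Thinned to 500 UMIs, ND had 10 lower with a median of 0.048, 200 mM a median of -0.028, 250 mM 7 lower, and 300 against 200 mM 3 higher. Without the 5% of barcodes with most UMIs, the median at 200 mM was -0.0087. The cause of the moves under thinning was not tested.

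A minimum of 20 CPM, which tests 51 to 54 members, left 2 lower in ND with a median of 0.064, 6 higher and 5 lower at 200 mM with a median of -0.040, 9 higher and 1 lower at 250 mM, 2 lower at 300 mM, 10 higher at 300 mM against ND and 3 higher at 300 against 200 mM. With no minimum, 12 were lower in ND.

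No paired analysis was possible because each condition has 1 library. Depth limits the members under 5 CPM most, and condition, batch and depth cannot be told apart.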

Other observations

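Within a library, counting alone gives a variance over barcodes equal to the mean. A gene with few UMIs in a barcode stays near that value even where cells differ. A ratio near 1 therefore cannot show how much the cells vary. With every kept barcode thinned to 500 UMIs, Hsp90aa1 had at least 1 UMI in 77.0% of barcodes in NS and 77.3% in ND, against 85.1%, 88.5% and 85.0% at 200, 250 and 300 mM sorbitol. Its variance over mean was 1.09, 1.05, 1.12, 1.13 and 1.11 in the same order, where 95% of genes lay under 1.03 to 1.04. Those genes had means from 0.02 UMIs upwards, whereas Hsp90aa1 had a mean of 1.56 in NS. At equal relative variation the ratio rises with the mean. Genes of like level were not compared, so Hsp90aa1 cannot be called unusually variable. Hspa8, the constitutive HSP70, was at 1.03 to 1.08. The members with a mean of at least 0.02 UMIs, 37 to 42 of them per library, had medians of 1.003 to 1.012 over the libraries, and all such genes 1.002 to 1.003.

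Hspb1 was found in 24.7% of barcodes in NS and 40.6% at 250 mM, with a variance over mean of 1.0002 and 1.05. Hspa1b was found in 0.220% of barcodes in NS and 0.0866% in ND, against 0.591%, 0.700% and 0.579% over the doses. No thinned barcode held 3 or more of its UMIs. No cell type that lacks these genes was at hand to set the share that free RNA gives.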
